A study of Danio rerio with 3 samples.

Results

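The oligos described here were designed from expressed sequence tags (ESTs, single reads from the end of a cDNA clone) of zebrafish ovary libraries that carry no gene name. They were chosen as printed oligos with an empty gene symbol field and the word ovary in the clone title. They comprised 927 of the 33745 distinct oligos on the array, at 928 of 35328 spots. Of these, 729 came from the Gong ovary library and 196 from the Campbell ovary library. The other 2 were MWG oligos whose titles describe a similarity to a mouse protein called ovary-specific mob-like protein, so for these the name of ovary library EST does not hold. Reads came from the 3′ end of the clone for 607 ESTs (503 Gong, 104 Campbell) and from the 5′ end for 318 (226 Gong, 92 Campbell). The titles gave a protein similarity for 398 oligos, a repeat element for 32 and no similarity for 497, and 409 had a UniGene cluster.

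The arrays compared FoxH1 morphants, zebrafish embryos injected with a morpholino against FoxH1, with control morphants, embryos injected with a control morpholino, all at 40% epiboly. A morpholino binds a chosen RNA and keeps it from being translated or spliced. Each of 3 two-colour arrays co-hybridised RNA from a pool of 50 FoxH1 morphants and RNA from a pool of 50 control morphants, so n = 3 pairs of pools. On arrays 1 and 2 the FoxH1 morphant pool was labelled with Cy3, and array 3 was the swap, with that pool in Cy5. The embryos were whole and pooled, so fewer cells of a type and less RNA per cell cannot be told apart.

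An oocyte stores messenger RNAs and proteins that run the first cell divisions, before the embryo transcribes its own genome. Many of these maternal RNAs are cleared around the time when the embryo's own transcription begins, and 40% epiboly, a stage at which the blastoderm is moving down over the yolk, comes after that time. FoxH1 is a forkhead transcription factor that works with Smad proteins downstream of Nodal signals and is itself supplied by the mother. An ovary library is therefore a source of maternal transcripts, but a clone from it need not be absent from the embryo's own transcription.

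All values are log2 ratios of FoxH1 morphant over control morphant intensity after loess normalisation of each array, so a negative value is a lower signal in morphants. The direction of array 3 is not settled by the labels, and its columns were read as ordered by sample, as on arrays 1 and 2. Local background was higher in the red than in the green column at 5.50% of spots on array 1, 5.15% on array 2 and 94.1% on array 3. Spots of random control sequence had ratios correlated at r = 0.93 between arrays 1 and 2, and at r = -0.73 between their mean and array 3 (132 spots). For Arabidopsis control spots these values were 0.66 and -0.89 (35 spots). The spots share the arrays and dyes, and these correlations are descriptions. Counts of signs and of calls are also given with the sign of array 3 reversed (array 3 turned). The foxh1 oligo, which checks no label because a morpholino does not remove the transcript, was at -0.22, -0.11 and 0.18. Of 14 measured blastoderm genes of a fixed list of 15, the median ratio was -0.96, with 8 below 0 on all 3 arrays and 0 above (array 3 turned: median -0.33, with 3 below and 2 above). Over all tested oligos, 17.6% were below and 17% above (turned: 24.7% and 24.8%). The median log2 intensity of the blastoderm genes was 10.26, against 7.29 for 7 measured genes of later tissues. The lists overlapped, with blastoderm genes from 8.25 to 12.91 and later genes from 6.17 to 11.55, the highest being ins.

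Of the 927 ovary oligos, 739 (79.7%) were usable on all 3 arrays and were tested, against 26224 (77.7%) of all 33745 oligos. The 188 that were not tested had a quality score of 0, or an intensity not above 0, on at least 1 array: 80 were usable on 2 arrays, 66 on 1 and 42 on none. The 1 EST printed at 2 spots, BI867960, scored 0 at both spots on all 3 arrays. Of the tested members, 657 (88.9%) exceeded the local background SD by a factor of 2 in each column of every array, against 91.1% of all tested oligos. Ovary ESTs were thus measured about as often as the rest of the array.

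The ovary ESTs gave a modest signal. Their median spot intensity was 179, 126 and 394.5 in the morphants on arrays 1, 2 and 3, against 437, 308 and 113 in the controls. The control signal was the higher on arrays 1 and 2 and the morphant signal on array 3, as over all oligos of the array (191, 147 and 384 in morphants, against 467, 338 and 162 in controls). Their median log2 intensity was 8.62, 8.07 and 8.13, lower than that of all other tested oligos by 0.18, 0.25 and 0.34 on arrays 1, 2 and 3 (mean difference -0.26 ± 0.08, SD, n = 3). An exact two-sided sign-flip test gave p = 0.25, the smallest that 3 arrays allow. Against 1097 tested ESTs of a shield stage library, also without gene name, the mean difference in log2 intensity was -0.88 ± 0.11 (exact sign-flip p = 0.25). Against ESTs of adult brain, kidney and testis libraries the differences were 0.36, 0.20 and 0.31, positive on all 3 arrays. In order of intensity the ovary ESTs thus lay below the shield stage ESTs and above those of the other adult tissues.

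Negative control spots set a limit to this signal. Of the 739 members, 260 (35.2%) were brighter than the 95th percentile of Arabidopsis control spots on all 3 arrays, against 42.6% of all tested oligos. That percentile was taken over usable control spots only, with a quality score and intensities above 0. These were 61, 76 and 89 of 173 Arabidopsis spots on arrays 1, 2 and 3. Random control spots were brighter. Their median was exceeded by 35.0%, 43.0% and 43.4% of members on arrays 1, 2 and 3. Of all tested oligos, 39.4%, 50.6% and 52.4% exceeded it. The 95th percentile of random control spots was exceeded on all arrays by 10 members (1.35%, against 1.68% of all tested oligos). For most members, therefore, a spot's signal was no higher than that of the median random control spot. The same held for most of all tested oligos on array 1, while on arrays 2 and 3 they were split nearly evenly.

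The ratios of the ovary ESTs were centred near 0 on arrays 1 and 2 and above 0 on array 3. On array 1 they ran from -3.30 to 3.55, with a median of 0.02 and quartiles of -0.45 and 0.57. On array 2 they ran from -5.36 to 3.47, with a median of -0.06 and quartiles of -0.53 and 0.47. On array 3 they ran from -3.79 to 5.86, with a median of 0.36 and quartiles of -0.01 and 0.87. The share of members below 0 was 48.2% and 53.6% on arrays 1 and 2 and 25.4% on array 3. The mean of the 3 medians was 0.11 ± 0.22 (SD, n = 3; exact sign-flip p = 0.75), which is less than the spread between arrays.

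The width of these distributions was that of the whole array. The interquartile range was 1.02, 1.01 and 0.88 for the ovary ESTs and 1.02, 0.99 and 0.89 for all other tested oligos. The mean difference was 0.00 ± 0.02 (exact sign-flip p = 0.75). Ratios past 1 in either direction were seen for 168, 163 and 187 members on arrays 1, 2 and 3. These were 22.7%, 22.1% and 25.3% of members, against 24.7%, 24.4% and 21.6% of other oligos. On array 3, 148 members were above 1 and 39 below -1, against 104 and 64 on array 1 and 81 and 82 on array 2. Among the 25485 other oligos, the counts above 1 and below -1 were 3792 and 2499 on array 1 and 3529 and 2697 on array 2. On array 3 they were 2205 and 3310. The members' excess above 1 on array 1 was thus shared with the other oligos as a set, and that on array 3 was not. Brain, kidney and testis ESTs also had more ratios above 1 than below -1 on array 3. Their counts there were 102 and 88 for brain, 102 and 82 for kidney, and 39 and 31 for testis. Shield stage ESTs had 87 above 1 and 95 below -1 on array 3. Of the ovary ESTs' mean ratios over 3 arrays, 89 (12.04%) were past 1 (background 9.2%). Of these, 20 were below -1 and 69 above 1, against 1100 and 1224 of the other oligos.

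Part of the tail on array 3 lay at the lower end of the scale. There, 22 tested members had a control intensity of 1 or below, and 0 had such a morphant intensity. On arrays 1 and 2 the low column was the morphant's, in 2 and 6 members, and 0 had a control intensity that low. These were 24 different members, all in the dimmest quartile of intensity, and their ratios on those arrays are set by the end of the scale.

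The spread fell with intensity. Quartile limits of mean log2 intensity, set on all tested oligos, were 7.45, 8.50 and 9.69, and 223, 199, 178 and 139 members fell into the quartiles from dim to bright. The members' interquartile range in these quartiles averaged 1.31 ± 0.16, 1.01 ± 0.11, 0.91 ± 0.10 and 0.59 ± 0.03 (SD, n = 3). The dimmest quartile exceeded the brightest by 0.77, 0.88 and 0.53 on arrays 1, 2 and 3 (mean 0.73 ± 0.18, exact sign-flip p = 0.25). When local background was added back before the ratio was taken, the order turned and the difference was -0.21 ± 0.07. It was 0.37 ± 0.07 with normexp and 0.28 ± 0.09 for spots brighter than the Arabidopsis controls. With poor spots kept it was larger, at 1.05 ± 0.05. With a dye term it was 0.33, but that is the spread of 1 fitted ratio per oligo and not of single arrays. For the mean ratio over 3 arrays, a like measure, the interquartile range was 0.80 in the dimmest quartile and 0.47 in the brightest. The share of members past 1 on array 1 was 33.6% in the dimmest quartile and 7.91% in the brightest, and on array 3 it was 35.0% and 7.19%. Among other oligos these shares were 42.4% and 9.33% on array 1, and 39.1% and 6.70% on array 3. A ratio past 1 was thus more frequent among dim spots, for members and other oligos alike.

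Within a quartile, dim ovary ESTs were less spread than other dim oligos. In the dimmest quartile their interquartile range was below that of the other oligos by 0.29, 0.27 and 0.38 on arrays 1, 2 and 3, and in the next by 0.10, 0.19 and 0.17 (exact sign-flip p = 0.25 for each). In the third quartile the difference was 0.05 ± 0.05 and in the brightest -0.03 ± 0.06. The equal spread over all intensities therefore combined narrower dim quartiles with a larger share of dim members, since 30.2% of members and 24.8% of other oligos fell into the dimmest quartile.

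The median ratio by quartile showed where array 3 stood apart. In the dimmest quartile the medians were -0.04, -0.19 and 0.58 on arrays 1, 2 and 3. In the second quartile they were 0.18, 0.03 and 0.39, and in the third 0.15, 0.00 and 0.34. In the brightest quartile they were -0.06, -0.11 and 0.24. Array 3 was the highest of the arrays in every quartile, and its distance from arrays 1 and 2 was largest at the dim end.

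Agreement was close between arrays 1 and 2 and not with array 3, the swap. Since only array 3 was swapped, dye orientation and that array's own pools and hybridisation cannot be told apart. Across the 739 members, arrays 1 and 2 correlated at r = 0.79 (rho = 0.79). Arrays 1 and 3 gave r = -0.13 (rho = 0.00), and arrays 2 and 3 gave r = -0.28 (rho = -0.15). The members share the arrays and their dyes, so these are descriptions. The correlation of arrays 1 and 2 was 0.67, 0.84, 0.93 and 0.97 from the dimmest to the brightest quartile. That of arrays 1 and 3 was -0.24, -0.01, -0.10 and 0.09. Bright members thus repeated closely between arrays 1 and 2 and not with array 3. In the brightest quartile, shield stage ESTs correlated with array 3 at r = 0.45 (array 1) and 0.40 (array 2). For other oligos these values were -0.07 and -0.13.

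Among the other tested oligos, arrays 1 and 3 correlated at r = -0.36 and arrays 2 and 3 at r = -0.47, and among shield stage ESTs at r = 0.19 and r = 0.03. The mean of arrays 1 and 2 was averaged with array 3, which gives both dye orientations equal weight. This value had an interquartile range of 0.62 for the ovary ESTs and 0.50 for other oligos. With array 3 turned before averaging, the ranges were 0.58 and 0.66. For 413 of the 739 members (55.9%) the turned value was the larger in size, against 58.2% of other oligos and 46.3% of shield stage ESTs.

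No ovary EST passed limma's test at an adjusted p of 0.05 (background 0% of 26224 oligos; lowest adjusted p 0.28). At an unadjusted limma p under 0.05 there were 110 members (14.9%, background 11.3%), of which 21 were lower (background 5.29%) and 89 higher (background 6.06%) in morphants. With a dye term, 0 members passed either (background 0%, lowest adjusted p 0.11), with 246 at an unadjusted limma p under 0.05 (33.3%, background 26.9%). That fit matches array 3 exactly, so before moderation its residual spread is that between arrays 1 and 2 alone. Turning array 3 gave 43 members past the test (background 9.53%), 12 of them lower and 31 higher in morphants. The background of these calls by direction was not computed. The members' share under that reading was below the background. At an unadjusted limma p under 0.05 that reading gave 107 lower (background 10.5%) and 59 higher (background 16.1%). This balance was opposite to that of the reading by sample, and also to that of the 43 members past the adjusted test.

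Signs on the 3 arrays were uneven. A ratio below 0 on all 3 arrays was seen for 64 members (8.66%, background 17.6%) and a ratio above 0 on all 3 for 198 (26.8%, background 17%). This imbalance rested on array 3. On arrays 1 and 2 alone, 310 members were below 0 on both (41.9%, background 42.3%) and 297 above 0 on both (40.2%, background 41.8%), both shares near the background. After array 3 was turned, 246 members were below 0 on all arrays (33.3%, background 24.7%) and 99 above (13.4%, background 24.8%). The turned imbalance was also seen in brain, kidney and testis ESTs. Of these, 36.4%, 33.0% and 34.0% were then below 0 and 16.4%, 18.5% and 17.4% above. In the reading by sample their shares were 15.4%, 15.4% and 17.4% below and 15.1%, 16.6% and 14.2% above, unlike those of the members.

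Larger ratios repeated in few members. Only 2 were below -1 on all 3 arrays (background 1.11%), and 20 were above 1 on all 3 (2.71%, background 0.862%). Turned, 12 were below -1 (1.62%, background 1.25%) and 28 above 1 (3.79%, background 7.26%), so the excess above 1 depended on the reading of array 3. Of the 260 members brighter than the Arabidopsis controls, a subset chosen after the data were seen, 30 were lower on all arrays (11.5%, against 22.6% of all such oligos) and 72 higher (27.7%, against 20.6%). The same 260 with array 3 turned held 90 lower (34.6%, against 23.4%) and 39 higher (15%, against 21.9%). By quartile from dim to bright, 14, 18, 14 and 18 members were lower on all arrays and 39, 68, 58 and 33 higher. The same quartiles held 6333, 6357, 6378 and 6417 other oligos. Of these, 709, 1014, 1322 and 1506 were lower on all arrays and 685, 989, 1224 and 1359 higher. The members' balance was opposite in every quartile when array 3 was turned, with 82, 56, 54 and 54 lower and 30, 23, 27 and 19 higher. Of the other oligos, 1712, 1506, 1516 and 1509 were then lower and 1771, 1775, 1527 and 1342 higher. In the reading by sample, either sign on all arrays was held by 23.8%, 43.2%, 40.4% and 36.7% of members, against 22.01%, 31.5%, 39.9% and 44.6% of other oligos.

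Set against the rest of the array, the ovary ESTs did not differ beyond the spread between arrays. The difference of medians, ovary ESTs minus all other tested oligos, was 0.01, -0.04 and 0.36 on arrays 1, 2 and 3 (mean 0.11 ± 0.22, exact sign-flip p = 0.75). Without array 3 it was -0.01, and with array 3 turned -0.13. Of the tested members 737 were Compugen oligos, and against the other 11136 tested Compugen oligos, a set chosen after the data were seen, it was 0.08, 0.06 and 0.25 (mean 0.13 ± 0.10, exact sign-flip p = 0.25; -0.04 with array 3 turned). The choice of comparison set thus changed the sign on array 2. The other Compugen oligos had medians of -0.06, -0.12 and 0.11 on arrays 1, 2 and 3, so they too were positive on array 3 only. On that array 1396 of them were above 1 and 1465 below -1. Brain, kidney and testis ESTs also had negative medians on arrays 1 and 2. On array 3 their medians were 0.18, 0.18 and 0.14.

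Against the shield stage ESTs the difference had 1 sign on all arrays. Medians were 0.02, -0.06 and 0.36 for ovary ESTs and -0.27, -0.27 and 0.02 for shield stage ESTs, so the ovary ESTs were higher by 0.29, 0.21 and 0.34 (mean 0.28 ± 0.07, exact sign-flip p = 0.25, the smallest possible). Without array 3 the mean difference was 0.25. Turned, it was 0.05, since arrays 1 and 2 then had a sign opposite to array 3. Within quartiles of intensity, a split of this difference added after the data were seen, the mean difference from dim to bright was 0.41, 0.46, 0.30 and 0.17, positive on all arrays in each. Of the 1097 shield stage ESTs, 353 (32.2%) were lower on all arrays and 170 (15.5%) higher. With array 3 turned these were 322 (29.4%) and 126 (11.5%), shares close to the ovary ESTs' 33.3% and 13.4%.

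Against the other adult tissues the ovary ESTs were also higher on every array in the reading by sample. The differences were 0.20, 0.19 and 0.17 against brain ESTs (mean 0.19 ± 0.01), 0.13, 0.12 and 0.17 against kidney ESTs (mean 0.14 ± 0.03), and 0.18, 0.11 and 0.22 against testis ESTs (mean 0.17 ± 0.05). Each gave an exact sign-flip p of 0.25. Turning array 3 made that array negative in each and the means 0.07 ± 0.21, 0.02 ± 0.17 and 0.03 ± 0.21. As stated, those ESTs were also dimmer, and the part of intensity in these differences was not tested. In all, 50 differences between sets were computed in this family, 31 of them with 1 sign on all 3 arrays. None can go below an exact p of 0.25, before or after adjustment.

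Medians of the members' own classes differed by less than the spread between arrays in most comparisons. Gong and Campbell ESTs had medians of 0.01, -0.06 and 0.36, and 0.13, -0.05 and 0.35 (difference -0.04 ± 0.07, exact sign-flip p = 0.5). The interquartile range was wider for Gong ESTs by 0.18, 0.14 and 0.22. Of 571 tested Gong ESTs, 55 were lower and 153 higher on all arrays, and of 166 tested Campbell ESTs, 9 and 45 (background 17.6% lower and 17% higher). With array 3 turned the Gong counts were 189 and 74 and the Campbell counts 57 and 23 (background 24.7% and 24.8%). Reads from the 3′ end and from the 5′ end differed in median by 0.02 ± 0.07 (exact sign-flip p = 0.75). Among Campbell ESTs alone the 3′ reads were lower by 0.11, 0.14 and 0.01 (mean -0.09 ± 0.07, exact sign-flip p = 0.25), and among Gong ESTs the difference was 0.07 ± 0.08 (exact sign-flip p = 0.5). ESTs with a protein similarity differed in median from those with none by 0.00 ± 0.06 (exact sign-flip p = 1). They were brighter by 0.30 ± 0.06 in median log2 intensity and narrower by 0.17 ± 0.10 in interquartile range, with 1 sign on all arrays (exact sign-flip p = 0.25 each). The 23 tested ESTs with a repeat element differed in median from those with no similarity by 0.11 ± 0.12. They were brighter by 0.47 ± 0.18 and narrower by 0.28 ± 0.12, with 1 sign on all arrays, and 10 of them (43.5%) were higher and 1 lower on all arrays. When array 3 was turned, 3 were higher and 7 lower.

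Named first are the members below 0 on all arrays with the smallest limma p. None passed the adjusted test, with adjusted p from 0.28 to 0.37. BI868116, a 5′ read without similarity in its title, had a morphant intensity of 427.9, 134.9 and 768 on arrays 1, 2 and 3, against a control intensity of 13779, 6537 and 2065. The control column was the higher on each array, and no morphant value reached the lowest control value. After loess the ratios were -3.30, -3.97 and -2.86 (mean -3.38 ± 0.56, SD, n = 3), the lowest mean among all tested members.

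BI980199, a 3′ read, had morphant intensities of 347.5, 209.4 and 890.4, against control intensities of 2725, 2113 and 920. Its ratios were -1.42, -1.78 and -1.48 (mean -1.56 ± 0.19). The array-wide columns differed in the same way, so on array 3 near equal intensities gave a ratio as low as on the other arrays. BI868116 and BI980199 were the 2 members below -1 on all arrays.

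BM080909 repeated most closely among these, at -0.94, -0.95 and -0.89 (mean -0.93 ± 0.03). BM036892 was at -1.25, -1.07 and -0.87, and BI867106 at -0.81, -0.93 and -1.30. BI983340, the brightest of the low members, had morphant intensities of 2041, 1843 and 8782, against control intensities of 11191, 10868 and 4667. Its ratios were -0.65, -0.73 and -0.48 (mean -0.62 ± 0.13). BM184757 and BI980764 had means of -0.86 and -1.30, and BI980148 was at -0.98, -0.54 and -1.48. BI843230 averaged -1.85 ± 1.01, and its morphant intensity on array 2 was listed at 1, so that ratio is bounded by the scale. If array 3 is turned, these 10 members have means between -1.47 and -0.01. With local background added back in the reading by sample, their means lay between -2.43 (BI868116) and -0.22 (BM184757). That of BI980764 was then -0.30.

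The members named next were above 0 on all arrays and had the smallest limma p, and 0 passed the adjusted test. They are not those with the highest means, of which the highest was 2.90. BM071805, whose title names a Xenopus entry called B910, had morphant intensities of 1039, 460.8 and 2021, against control intensities of 766.3, 249.2 and 104.1. Its ratios were 1.97, 2.27 and 2.87 (mean 2.37 ± 0.45). BI867570 had ratios of 1.84, 1.61 and 2.06 (mean 1.84 ± 0.22) and was the brightest of these members, with morphant intensities of 2926.5, 969.4 and 3887 against control intensities of 2717, 983.2 and 345.7. On array 2 its intensities were near equal in both columns, and the ratio there came from the array-wide difference between columns.

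BI984663, from the Campbell library, was at 2.07, 1.92 and 1.60 (mean 1.86 ± 0.24). BI979131 repeated most closely, at 1.33, 1.32 and 1.37 (mean 1.34 ± 0.03), at morphant intensities of 334.6, 163.7 and 502.2 against control intensities of 346.6, 147 and 78.4. On arrays 1 and 2 its columns were also near equal, as were those of several other named higher members, among them BI709515 and BI672829. BI709515 and BM184867, both with a repeat element in the title, had means of 1.68 ± 0.21 and 1.44 ± 0.08. The other named ones, BM082504, BI672829, BI980715 and BI708291, had means of 1.61, 1.30, 1.25 and 1.32. Every named higher member had an adjusted p of 0.28. If array 3 is turned, these 10 members have means between 0.29 and 0.80, and array 3 then has the opposite sign to arrays 1 and 2. With local background added back in the reading by sample, their means lay between 0.36 (BI672829) and 1.36 (BI867570). That of BI979131 was then 0.43.

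Among the 6 brightest members, ratios were mostly small, and 0 passed the test. BI708483 had morphant intensities of 44695, 37473 and 52198, against control intensities of 51053, 51832 and 32331, and ratios of 1.34, 1.12 and -0.36. Its sign differed between the dye orientations. BI983483 was at 0.25, -0.01 and 0.30, BI866874 at 0.04, -0.36 and -0.07, and BM082853 at -0.17, -0.23 and 0.34. BI983388 was at 0.67, 0.16 and 0.01. BM082431, whose title names trehalase of rabbit, an enzyme that splits the sugar trehalose, was at -0.46, -0.72 and -0.02. Of these 6 only BI983388 and BM082431 held 1 sign on all arrays.

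The members with the widest range over the arrays showed opposite signs across the swap. BI980391 was at 3.55, 3.47 and -3.79, from morphant intensities of 812.4, 910.4 and 159.3 against control intensities of 181.8, 225.6 and 835.5. BI984262 was at 2.92, 3.09 and -3.78, BI709862 at 3.51, 2.67 and -2.81, and BI866959 at 2.99, 2.95 and -3.19. In these 4 the column with the higher intensity exchanged on array 3. Their means with array 3 turned were 3.60, 3.26, 2.996 and 3.04, with limma adjusted p of 0.0063, 0.0082, 0.0093 and 0.0063. These members were picked for a wide range over the arrays, so their agreement with array 3 turned follows largely from that choice. The p-values come from the same values and cannot serve as support for that reading.

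The remaining wide members went the other way and were dim. BI673527, similar to human CKS1, a small protein that binds cyclin-dependent kinases, was at -0.76, -2.31 and 4.23, and its control intensity on array 3 was 9.6. BM071822 was at -0.91, -3.17 and 3.23, with a control intensity of 1 on array 3. Both of these members belonged to the dimmest quartile of intensity, as did BI709862, so dimness did not set them apart from all of the others.

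The pair of oligos with the mouse mob-like protein in their titles measured what may be the same transcript. Oligo DRFRAMEFINDER08051 was at 0.74, 0.89 and -0.43 and DRFRAMEFINDER04079 at 0.23, 0.27 and -0.86. The first was the higher by 0.52 ± 0.09 (SD, n = 3), and both were below 0 only on array 3.

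Some titles name a known protein in Swiss-Prot, and 38 such entries were grouped into 9 classes from the titles. Of 34 tested, 0 passed the test, 3 were lower on all arrays (background 17.6%) and 7 higher (background 17%). When array 3 was turned, 17 were lower (background 24.7%) and 6 higher (background 24.8%). Class medians are of the mean ratio over 3 arrays, beside a median of 0.12 over all tested members and 0.02 over all tested oligos. The entries come from other species and are background to an EST, not its gene.

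The egg coat was represented by 1 EST. BI980640, similar to hamster ZP3, a zona pellucida protein to which sperm binds, was at 0.88, 0.73 and 1.66 (mean 1.09 ± 0.50; limma adjusted p = 0.36). Its mean was -0.02 when array 3 was turned.

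Among chromatin and DNA entries, BM035368, similar to histone H2B, was at 1.03, 1.52 and 2.39 (mean 1.65 ± 0.69; adjusted p from limma 0.32). Its mean was 0.05 when array 3 was turned. The other 3 tested chromatin and DNA entries, ATRX, thymidylate kinase and DNA polymerase beta, were below 0 on arrays 1 and 2 and above 0 on array 3, and the class median was -0.06. Among 4 RNA processing entries the median was 0.10. BI983321, similar to the ribonuclease P subunit p29, was at 1.61, 1.32 and 4.43 (mean 2.45 ± 1.72), so array 3 set much of its mean, which was -0.50 when array 3 was turned. The spliceosomal proteins Sm D3 and E were at means of 0.19 ± 0.10 and -0.25 ± 0.06.

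The 5 translation entries had a median of 0.09. BI980019, similar to ribosomal protein L34 of the bacterium Coxiella burnetii, was at 0.32, 0.31 and 0.82. Initiation factor eIF1A (BI979073) was at 0.35, 0.02 and 1.09. Ribosomal protein S17 (BI983379) was at -0.20, -0.17 and -0.06. Of the 4 tested cell cycle entries, with a median of 0.29, only E2F2 (BI867328) held 1 sign, at 0.23, 0.05 and 0.32. Its partner DP-1 (BI867054) was at -1.30, -1.08 and 0.80, and cyclin-dependent kinase 10 (BI983627) at 1.53, 1.67 and -1.25.

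Transcription machinery, respiratory chain, and ubiquitin and proteasome entries had no member with 1 sign on all arrays in the reading by sample. With array 3 turned, all 4 transcription entries were lower on all arrays, as were 3 of 6 respiratory chain and 2 of 3 ubiquitin and proteasome entries. The background was 24.7% of all oligos and the share of all members 33.3%. The classes are small, and their counts were not tested. Higher on all arrays were then 2 respiratory chain entries and 1 ubiquitin and proteasome entry (background 24.8%, members 13.4%). The 4 transcription entries had a median of -0.34, with medians of -0.74, -0.52 and 0.22 on arrays 1, 2 and 3. The 6 respiratory chain entries, among them subunits of complex I, complex III and cytochrome c oxidase, had a median of 0.00. The 3 ubiquitin and proteasome entries had a median of 0.10. Of 3 zinc finger entries, the EST similar to a Xenopus oocyte zinc finger protein, BI867819, was at -1.81, -1.07 and -0.09 (mean -0.99 ± 0.87).

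Some ESTs shared a UniGene cluster with oligos outside the ovary set, which gave a second measurement of the same cluster on the same arrays. There were 50 such members with 57 partner oligos. The member and its partners had the same sign of the mean ratio in 35 (70%), with r = 0.39 (rho = 0.39, n = 50). When array 3 was turned, 22 (44%) had the same sign and r was 0.03. On single arrays the same sign was held by 64%, 58% and 60%. The examples that follow were chosen after their values were seen.

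BM183317 was at 1.02, 0.58 and 1.12, and its partner at 1.104, 0.62 and 1.15. BM036903 was at 0.50, 0.58 and -0.11, and its partner, the lamin B1 oligo for a protein of the nuclear lamina, at 1.59, 1.68 and -1.19. In both pairs the arrays kept their order. BI843298 was at 0.26, 0.02 and 0.35, and its partner, the oligo for ran, the GTPase of nuclear transport, at -0.24, -0.31 and -0.62. These opposite signs came from a bright oligo, at a log2 intensity of 12.02, and a dimmer EST at 9.68.

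Named maternal and oocyte genes on the array served as a list of the same biology outside the ESTs. Of 64 listed genes 15 were measured, none past the test, with a median ratio of 0.34. Above 0 on all arrays were 6 of them (background 17% of oligos), and below 0 were 2 (background 17.6%). Turned, 4 were above 0 and 1 below, with a median of 0.12. The germ plasm RNA-binding gene dazl was at 1.85, 1.27 and 2.76, cyclin ccnb1 at 1.06, 0.91 and 0.87, and the zinc finger gene cth1 at 1.54, 1.53 and 0.21. The polyadenylation factor gene cpeb1b was at 0.98, 0.66 and 1.11, the egg coat gene zp3 at 0.53, 0.49 and 0.34, and the RNA-binding gene celf1 at 0.20, 0.21 and 0.42. The Y-box gene ybx1 was at -1.099, -0.96 and -0.36, and the pluripotency gene pou5f3 at -0.15, -0.08 and -0.49. When array 3 was turned, celf1 had a mean of -0.004 and the other 5 of the higher genes had means between 0.12 and 0.95.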

How the data were processed

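RNA of 3 pairs of pools was measured on 3 two-colour arrays. Per the file headers, each deposited table gives the mean spot intensity of a red and a green column, local background and its SD, a ratio and a quality score. The intensity was already background-subtracted by the authors. The deposited ratio is red over green divided by 1 constant per array, within 1% at 99.4%, 99.5% and 99.6% of spots, and the authors' deposited log2 matrix is minus log2 of it within 0.01 (35328, 35328 and 35327 values). The quality score was deposited by the authors with no definition. Which scanner and software made the tables is unstated in the labels and headers, and the oligo sequences were not used here.

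Log2 of green over red was normalised by loess (span 0.3) per array. Spots of quality score 0 were left out (12.1%, 14.2% and 10.3% of member spots). Testing required a usable value on each of the 3 arrays and, on 2 or more, a column exceeding 2 SDs of its local background. This filter removed 0 members. Tests used limma 3.58.1 in R 4.3.3 with lmFit and eBayes, Benjamini-Hochberg adjustment over all 26224 oligos and a threshold of 0.05. They were tried on simulated data. Dye effects as on the arrays were simulated too, but recovery was required only without them. The outcome with dye effects is not given here, so the trial is not offered as support for the test under them. Per-array summaries used an exact two-sided sign-flip test. Tables were read with Python 3.11.15. The arrays are separate repeats per the design text alone, so p-values measure the spread between these arrays, and their number limits the precision. With the dye term that spread, before moderation, is between arrays 1 and 2 alone.

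The members, lists and the reading of array 3 were chosen with earlier results of these data known. Named oligos were up to 10 per direction by smallest p with 1 sign on all arrays, the 6 brightest, the 6 widest in range, and those sharing a target. Alternatives covered the direction of array 3, normalisation, background, filters, quality, a dye term, moderation and each array left out.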

Additional observations from a re-analysis of the deposited data

How the results depend on the processing

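With array 3 turned, 43 members passed the test, the median ratio was -0.13 and the difference from other oligos -0.13, 246 members were lower and 99 higher on all arrays, the rank correlation of arrays 1 and 2 with array 3 was 0.089 against -0.089, and the mob-like pair differed by 0.23. The spread (mean interquartile range 0.97) was 0.89 with loess within print-tip blocks, 0.39 with local background added back and 0.80 with normexp. It was 1.08 with poor spots kept and 0.72 for spots brighter than Arabidopsis controls. With a dye term it was 0.62, on 1 fitted ratio per oligo, beside 0.71 for the mean ratio over 3 arrays. With background added back the difference in spread between dim and bright quartiles was -0.21, the rank correlation 0.048 and the mob-like difference 0.38. The rank correlation was 0.11 within print-tip blocks, -0.21 with poor spots kept and 0.060 in the brighter spots, where 30 members were lower and 72 higher on all arrays, among fewer members. Leaving out 1 array in turn gave 0 to 153 calls, medians of -0.018 to 0.19, differences from other oligos of -0.015 to 0.19, 74 to 310 members lower and 229 to 297 higher. The 153 calls (22.7% of all oligos passed) came without array 3, from 2 arrays of 1 dye orientation. Unless stated, the cause was not tested. Of 168 values of main results under alternatives, 143 were scored as kept, as were 556 of 577 values of single oligos. Medians and differences were scored by sign alone and counts by a fixed factor. Oligos named for their p were scored by sign and side of the threshold. Other values were scored by a move smaller than their spread between arrays (for the correlation, 0.1). An oligo with a wide spread could thus move far and be scored as kept, as BI980391 did from 1.08 to 3.60 with array 3 turned. An oligo named for its p could also shrink and be scored as kept, as BI979131 did from 1.34 to 0.43 with background added back. The alternative without the dim filter, with 10 and 34 of the kept values, could not differ because that filter removed 0 members. The 4 alternatives on brightness, Compugen oligos, quartiles and library clones were chosen after seeing the data. The pairing of pools was kept in every test, because each value is the ratio of 1 morphant to 1 control pool on the same array.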

Other observations

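Members that were not tested could still be read on single arrays. Their medians were -0.17 on array 1 (76 oligos), -0.07 on array 2 (57 oligos) and 0.15 on array 3 (93 oligos). The EST printed at 2 spots, BI867960, had morphant intensities of 33.7 and 11.8 on array 1, against control intensities of 100.6 and 108.8. Both spots scored 0 for quality.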
